A study of Mus musculus with 2 samples.

Results

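The 8 measured genes of the interferon regulatory factor family (Irf1, Irf2, Irf3, Irf4, Irf5, Irf7, Irf8 and Irf9) were compared between innate lymphoid cell (ILC) progenitors labelled as Yeats4 knockout and wild-type ILC progenitors. Members were all genes of the deposited table whose platform symbol is Irf followed by a single digit. Each had 1 probe set, and the 8 genes stand among 19505 named genes and 29129 probe sets in all.

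The series holds 2 microarrays, 1 (the knockout-labelled array) of sorted progenitors from mice with a Yeats4 deletion and 1 of sorted progenitors from wild-type littermates. The labels give no strain, age, Cre driver or number of mice for either. Both populations were sorted by flow cytometry for absent lineage markers, for CD127 and integrin α4β7, and for intermediate levels of c-Kit and Sca-1. Yeats4 encodes a histone acetylation reader found in the SRCAP and Tip60 chromatin complexes, and the comparison asks which genes depend on it in these cells.

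Interferon regulatory factors are transcription factors that share a DNA-binding domain with a conserved set of tryptophans and bind elements built from repeats of GAAA. Irf3, Irf5 and Irf7 are activated by phosphorylation after nucleic acid sensing and switch on interferon genes, and Irf9 carries the signal of interferon receptors to DNA together with Stat2. Irf1 is an activator induced by interferon-γ, and Irf2 binds the same elements and often opposes it. Irf4 and Irf8 act mainly in blood cells, where Irf8 directs monocyte and dendritic cell fates and Irf4 acts in B and T cell differentiation. Irf1 and Irf2 are both required for normal natural killer cell development in mice.

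Short stretches before the start of 6 genes are printed because they hold the letters these factors and their upstream signals read. Both strands of the RefSeq promoter windows (GRCm38.p6, 250 bases before to 50 after each start) were searched for the repeat bound by interferon regulatory factors, which is GAAA, any 2 bases and GAAA again, and for TTCNNNGAA, the gamma-activated site (GAS) of genes that respond to interferon-γ. The matches are in capitals, and overlapping matches merge into a longer run. All stretches are written 5′ to 3′ along the gene.
Irf1 (chr11:53769912-53769971, plus strand): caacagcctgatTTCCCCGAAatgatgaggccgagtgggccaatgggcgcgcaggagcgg
Irf8 (chr8:120736175-120736234, plus strand): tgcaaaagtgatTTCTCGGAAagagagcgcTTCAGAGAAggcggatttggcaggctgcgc
Irf2 (chr8:46739495-46739554, plus strand): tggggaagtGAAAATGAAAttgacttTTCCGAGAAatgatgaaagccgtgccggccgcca
Isg15 (chr4:156200849-156200908, minus strand): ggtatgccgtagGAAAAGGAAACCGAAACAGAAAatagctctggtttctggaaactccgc
Bst2 (chr8:71537561-71537620, minus strand): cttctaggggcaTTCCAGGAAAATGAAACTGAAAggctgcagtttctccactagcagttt
Irgm1 (chr11:48871421-48871480, minus strand): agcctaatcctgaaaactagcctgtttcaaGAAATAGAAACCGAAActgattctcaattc
Irf1 and Irf8 show the GAS, which occurs once in the Irf1 stretch and at 2 places in the Irf8 stretch, and Irf2 holds both motifs. Isg15, Bst2 and Irgm1 are interferon-induced genes in which successive matches to the GAAA repeat overlap by sharing a GAAA. All 8 members matched the promoter table. A GAS was found in 3 of them (37.5%), against 9.55% of the 27025 genes in the table, and the GAAA repeat in 1 of them (12.5%), against 3.99% of all genes. A match is a description of letters and not of binding.

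Expression values are RMA values on the log2 scale as deposited, and every difference is the knockout-labelled value minus the wild-type value. A single array per genotype leaves no replicate error, so no test was made. Each difference is therefore set beside the local spread, which is the scaled median absolute deviation of the differences of the 500 genes closest to it in mean level. Background was set by the 5222 negative control probe sets, whose 95th percentile was 4.73 on the knockout-labelled array and 4.80 on the wild-type array. Genes that did not reach it on either array are described as near background. The 10881 genes whose mean reached the median of all probe sets (2.88) had a median difference of 0.08, and all 8 members were among them. That median varied with level, from -0.04 at means below 4 to 0.17 at means of 6 to 7. Yeats4 itself read 5.90 on the knockout-labelled array and 5.96 on the wild-type array. Where its probes lie relative to the deletion is not known here, so this value does not check the label.

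No member of the family differed 2-fold between the arrays. Of the 10881 genes, 1.56% were higher by 2-fold or more and 0.781% were lower by 2-fold or more. At a 1.5-fold threshold 1 member, Irf7, had a measured difference above it, as had 9.16% of all genes, and no member was lower, against 5.16% of all genes. Irf7 was near background on both arrays, and its difference was 0 once values were raised to the negative control level. The measured differences ran from -0.43 for Irf4 to 0.62 for Irf7, with 3 members above 0 and 5 below. Their median was -0.07, against 0.08 over all genes past the filter. The median size of a difference was 0.33 for the members and 0.26 for all genes. At least 100 of the 500 genes nearest in level differed as much as any member did. Measured from 0, 4 of the 8 differences exceeded 1 local spread in size, and 34.4% of all genes did so. Measured from the median of its neighbours, Irf2 (0.22) was within its local spread (0.30).

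**Figure D1:**
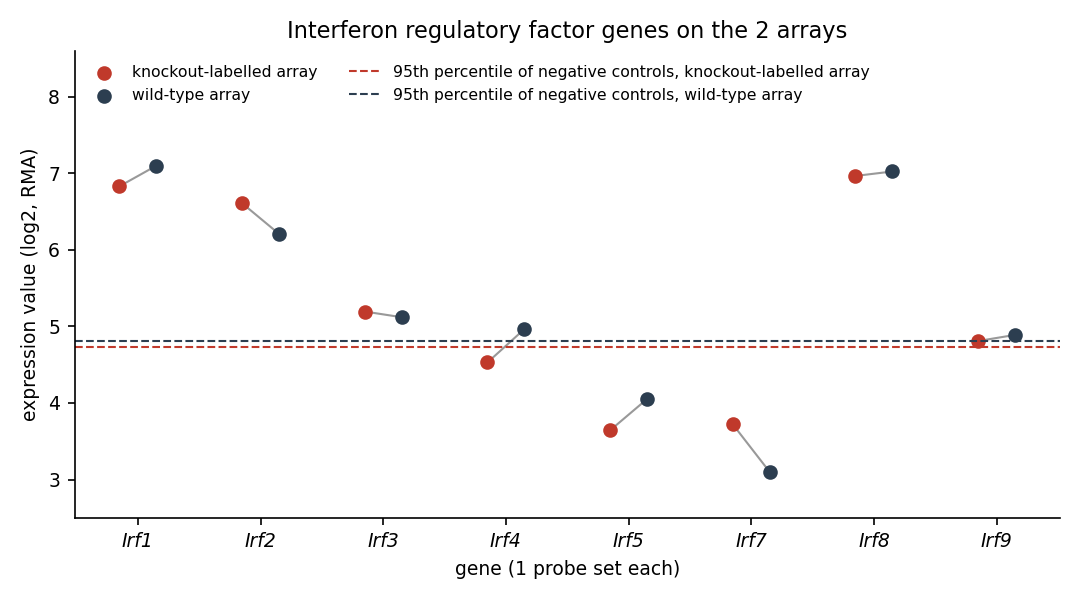
Expression values (log2, RMA) of the 8 interferon regulatory factor genes, 1 probe set each, on the knockout-labelled array (red, left of each pair) and the wild-type array (dark, right). Dashed lines are the 95th percentiles of the negative controls, 4.73 and 4.80; Irf1, Irf2, Irf3, Irf8 and Irf9 lie above them on both arrays, Irf4 on the wild-type array only, and Irf5 and Irf7 under them on both.

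Irf1 and Irf2, the antagonists that share DNA elements, were both well above background and differed in opposite directions. Irf1 read 6.83 on the knockout-labelled array and 7.10 on the wild-type array. The difference was -0.27 (local spread 0.26), or 1.20-fold lower. Only 1.11% of negative controls were as high as Irf1 on either array. Among the 500 genes nearest in level 36 had a difference as low, and 189 differed by at least as much in size. Irf2 read 6.61 on the knockout-labelled array and 6.21 on the wild-type array, a difference of 0.40 beside a local spread of 0.30, or 1.32-fold higher. Of its 500 neighbours 108 had a difference as high, and 125 differed by at least as much in size. The difference of Irf2 exceeded that of Irf1 by 0.67. Genes at these levels were shifted upwards as a whole. Relative to the median of its neighbours Irf1 was lower by more (-0.42) and Irf2 higher by less (0.22). For Irf2 that value is smaller than the local spread. The direction of both genes was the same under each alternative scaling that was run.

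Irf8, the regulator of monocyte and dendritic cell fate, was far above background and differed little. It read 6.96 on the knockout-labelled array and 7.02 on the wild-type array. The difference was -0.06 (local spread 0.26). Of the 500 genes nearest in level 425 differed by at least as much. After correction for level with loess the difference was -0.21. Irf4, its closest relative, lay at the edge of detection. It read 4.53 on the knockout-labelled array, which is under the negative control level, and 4.96 on the wild-type array. The measured difference was -0.43 against a local spread of 0.41. Because only the wild-type array was above background, Irf4 is given as at least 1.12-fold lower, a limit smaller than the local spread. Of the negative controls, 5.88% were as high as Irf4 on the knockout-labelled array and 4.56% on the wild-type array.

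Irf3 and Irf9, which act at the start and at the end of the interferon circuit, differed by less than 1 local spread. Irf3, the factor behind the first interferon-β transcription, read 5.19 on the knockout-labelled array and 5.12 on the wild-type array. Its difference of 0.07 had no stable direction, being -0.01 after centring on the median, -0.03 after loess correction and -0.04 after quantile normalization of the table. Irf9, the DNA-binding subunit of the interferon-stimulated complex ISGF3, read 4.81 on the knockout-labelled array and 4.89 on the wild-type array. Both readings were 0.08 above the negative control percentile of their array, so Irf9 was barely above background. Its difference was -0.08 against a local spread of 0.43, and 432 of the 500 neighbours differed by at least as much.

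Irf7 and Irf5 were near background on both arrays, although Irf7 showed the largest difference of the family. Irf7, which amplifies interferon-α production and is itself induced by interferon, read 3.72 on the knockout-labelled array and 3.10 on the wild-type array, a difference of 0.62 beside a local spread of 0.46. Of the negative controls 11.9% were as high on the knockout-labelled array and 20.7% on the wild-type array. There were 322 negative controls within 0.25 of its mean, and 35.1% of them differed as much in size. Irf5, which acts downstream of Toll-like receptors in macrophages and dendritic cells, read 3.64 on the knockout-labelled array and 4.05 on the wild-type array. Its difference was -0.41 against a local spread of 0.43. Of 229 negative controls within 0.25 of its mean, 48.5% differed as much. For neither gene is a fold given, since both readings lay within the range of the negative controls.

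**Figure D2:**
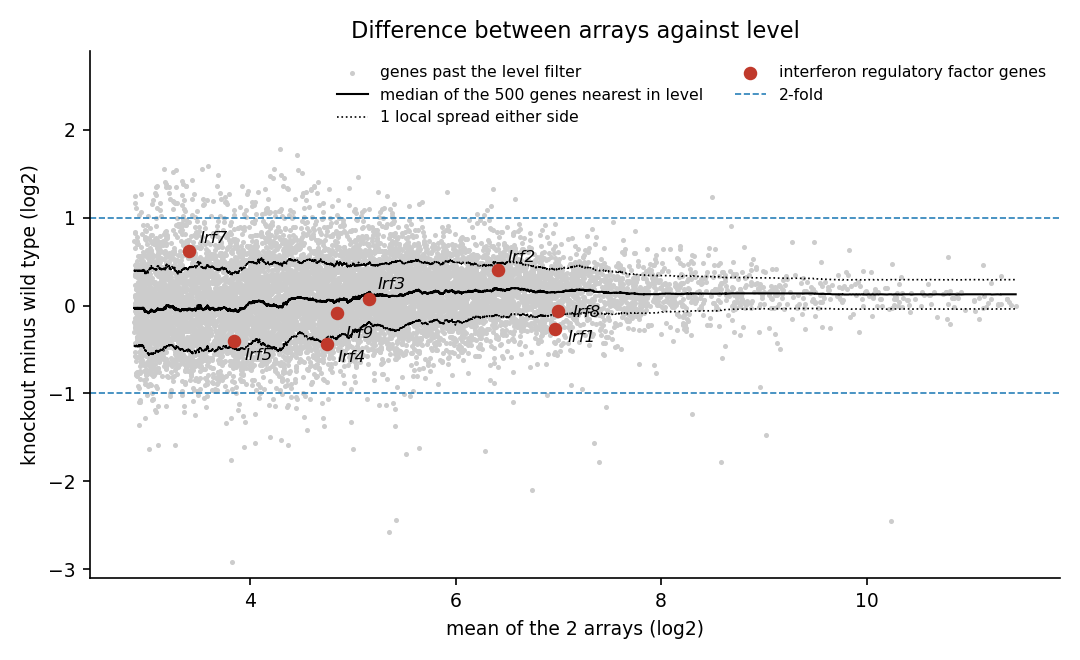
Difference between the arrays (knockout minus wild type, log2) against the mean of the 2 arrays (log2) for the 10881 genes past the level filter (grey) and the 8 interferon regulatory factor genes (red). The black line is the median of the 500 genes nearest in level, dotted lines are 1 local spread either side, and blue dashes mark 2-fold; all 8 members lie inside the 2-fold lines, and 6 of them lie below the median of their neighbours.

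The receptors and kinases that lead to Irf1 and Irf9 differed little. Of 12 genes past the filter in the list of interferon receptors and JAK-STAT components, 8 were above 0 and none passed 2-fold, with a median of 0.05. That median changed sign after centring (-0.04), loess correction (-0.07) and quantile normalization (-0.05). The interferon-γ receptor chains Ifngr1 (8.13 on the knockout-labelled array and 7.85 on the wild-type array, difference 0.29, local spread 0.21) and Ifngr2 (5.18 on the knockout-labelled array and 4.91 on the wild-type array, difference 0.27, local spread 0.38) were the receptor genes with the largest differences. The type I receptor chains Ifnar1 (0.07) and Ifnar2 (-0.10) differed by less than their local spreads of 0.40 and 0.20. The phosphatase Ptpn6 was at 0.34. The feedback inhibitor Socs1, near background, was at -0.47. Stat2, the partner of Irf9, read 4.93 on the knockout-labelled array and 4.80 on the wild-type array.

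The sensors and adaptors that activate Irf3, Irf5 and Irf7 differed by less than 2-fold, most with values above 0. Of 21 genes past the filter 17 were above 0 (81.0%), against 58.2% of all genes past the filter. Of the 14 above background on both arrays 11 were above 0 (78.6%), against 65.7% of the 5283 such genes overall. The list median was 0.18, and 0.07 after loess correction. Cgas, the cytosolic DNA sensor, read 5.63 on the knockout-labelled array and 4.74 on the wild-type array, where it was under the negative control level, and was at least 1.77-fold higher. Of its 500 neighbours 9 had a difference as high. Azi2, an adaptor of the kinase Tbk1, read 5.43 on the knockout-labelled array and 4.80 on the wild-type array and was at least 1.54-fold higher. Tbkbp1 (0.92) and the receptor Tlr4 (0.89) were near background on both arrays. Among genes above background on both arrays, the RNA-sensing adaptor Mavs was at 0.56 and the Toll-like receptor adaptor Myd88 at 0.45, whereas the ubiquitin ligase Traf6 was at -0.43. Tbk1 itself (0.08), Sting1 (0.04), Tlr7 (0.04) and Tlr9 (-0.01) differed by less than their local spreads.

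**Figure D3:**
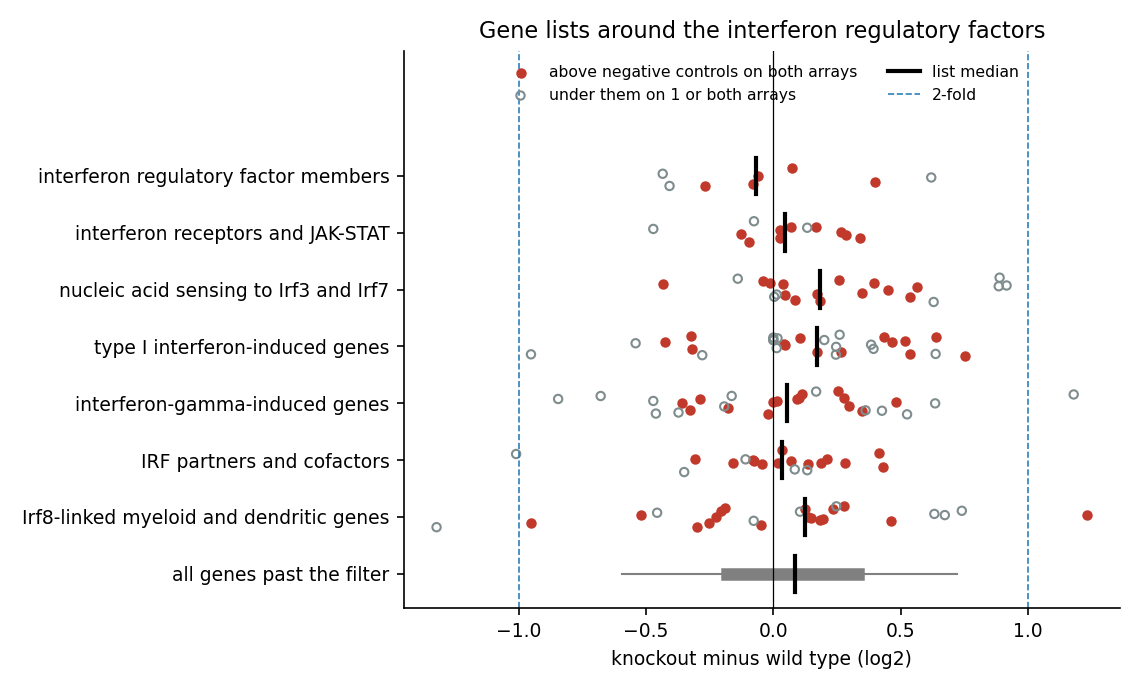
Difference between the arrays (knockout minus wild type, log2) of each gene past the level filter in 7 lists around the interferon regulatory factors, with black bars at the list medians. Red points are above the negative controls on both arrays and open points are not; in the bottom row the thick bar covers the 25th to 75th percentile of all genes (-0.18 to 0.33) and the thin line the 5th to 95th (-0.59 to 0.72).

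Genes that type I interferon induces through Irf9 were near background on both arrays about as often as genes in general. This held for 27 of 42 measured genes of the list (64.3%), and for 13244 of the 19505 named genes (67.9%). Of the 42, 27 did not reach the negative control percentile on the knockout-labelled array and 28 on the wild-type array. Isg15, whose promoter letters are shown above, read 2.05 on the knockout-labelled array and 1.62 on the wild-type array. Ifit1, Ifit2, Ifit3, Mx1, Mx2, Rsad2 and Usp18 were also near background on both. Of 29 genes past the filter 20 were above 0, 6 were below and 3 (Dhx58, Herc6 and Oasl2) had equal values, as did 81 of all genes past the filter. The list median was 0.17, and 0.07 after loess correction, and no gene passed 2-fold. Of the 14 genes above background on both arrays, 11 were above 0 (78.6%), against 65.7% of the 5283 such genes overall. Eif2ak2, the kinase that halts translation upon double-stranded RNA, read 6.49 on the knockout-labelled array and 5.74 on the wild-type array. The difference was 0.75 (local spread 0.33). Of its 500 neighbours 11 had a difference as high. The antiviral membrane protein gene Ifitm1 read 8.50 on the knockout-labelled array and 7.86 on the wild-type array, a difference of 0.64 beside a local spread of 0.20. The neighbouring family members Ifitm2 (0.26) and Ifitm3 (0.05) differed less. The genes of 2'-5' oligoadenylate synthetases Oas1a (0.64) and Oas1b (-0.95), near background on both arrays, differed in opposite directions, and as closely similar copies they may share signal.

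Genes induced by interferon-γ, for which Irf1 is a main activator, differed in both directions. Of 28 genes past the filter 15 were above 0 and 13 below, with a median of 0.05 that was -0.03 after centring, -0.06 after loess correction and -0.02 after quantile normalization. The single gene past 2-fold was Il15ra (4.64 on the knockout-labelled array and 3.46 on the wild-type array), which was near background on both. The peptide transporter gene Tap2 read 4.29 on the knockout-labelled array and 5.14 on the wild-type array. It was at least 1.26-fold lower, a limit smaller than its local spread of 0.44. Cd274, which encodes PD-L1, read 4.61 on the knockout-labelled array and 5.29 on the wild-type array and was at least 1.40-fold lower. Tap1 (-0.29, local spread 0.29) and Tapbp (-0.36, local spread 0.25) were also below 0. They act with Tap2 in loading MHC class I with peptide, and both were above background on both arrays. Of the 500 genes nearest in level, 195 and 110 differed by at least as much. The immunoproteasome genes Psmb10 (0.48) and Psmb8 (0.28) were above 0, and Psmb9 (-0.02) and B2m (0.01) were close to it. Igtp, an immunity-related GTPase near background, was at 0.64. Irgm1, with the GAAA repeats shown above, read 5.46 on the knockout-labelled array and 5.36 on the wild-type array.

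The GAAA repeat was present in the promoter windows of 12 of 31 matched type I interferon-induced genes (38.7%) and 13 of 24 matched interferon-γ-induced genes (54.2%), against 3.99% of all genes. Among genes past the filter with a matched window, the type I median was 0.26 for 7 genes with the repeat and 0.18 for 14 without it. In the interferon-γ list it was 0.10 for 11 genes with the repeat and 0.21 for 10 without it. List genes without a matched window are left out, so these medians cover fewer genes than the list medians of 0.17 and 0.05. Bst2, which carries both motifs, read 6.11 on the knockout-labelled array and 5.64 on the wild-type array. The difference was 0.47 (local spread 0.34).

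Genes listed as partners or cofactors of the family differed in both directions. Past the level filter the differences ran from -1.01 for Irf2bpl to 0.43 for Irf2bp2. Spi1, which encodes PU.1 and pairs with Irf4 and Irf8 at composite sites, read 10.81 on the knockout-labelled array and 10.68 on the wild-type array. Its difference was 0.13. Batf (-0.08), Spib (-0.07), Jund (0.04) and Ikzf1 (0.02) differed by less than their local spreads. Irf2bp2 encodes an Irf2-binding corepressor, and Irf2bpl carries a related name. Irf2bpl read 3.81 on the knockout-labelled array and 4.82 on the wild-type array, a measured difference of -1.01, and was at least 1.01-fold lower. Irf2bp2 read 6.99 on the knockout-labelled array and 6.56 on the wild-type array, a difference of 0.43 beside a local spread of 0.28. Irf2bp1, near background, was at -0.11. Fkbp4, an immunophilin that binds Irf4, was at 0.42, and Ikzf3, near background, at -0.35. Of 19 genes past the filter 11 were above 0 and the list median was 0.04, which was -0.05 after centring, -0.10 after loess correction and -0.07 after quantile normalization.

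Myeloid, dendritic and B lineage genes linked to Irf8 differed in both directions, with Id2 more than 2-fold higher and Pax5 at -1.32 as measured. Of 25 genes past the filter 14 were above 0 and 11 below, with a median of 0.12. Siglech (-0.05), Cst3 (0.12), Ly86 (0.18), Tcf4 (0.20) and Csf1r (0.24) differed by less than 0.25, and Cybb, an NADPH oxidase gene, was at -0.22. Other genes above background on both arrays differed more. Flt3 (0.46) and Cebpa (0.28) were above 0, and Blnk (-0.52), Klf4 (-0.30) and Ctss (-0.25) below. Gfi1 (0.63) did not reach the negative control percentile on the wild-type array and was at least 1.39-fold higher. Fcgr1 (0.67) and Zbtb46 (-0.46) were near background. Id2, which Irf8-dependent dendritic cells and ILC progenitors both express, read 9.11 on the knockout-labelled array and 7.88 on the wild-type array. The difference was 1.23 (local spread 0.19). The B lineage factor Pax5 (4.32 on the knockout-labelled array and 5.65 on the wild-type array) was at least 1.79-fold lower. Ebf1 (6.75 on the knockout-labelled array and 7.70 on the wild-type array) differed by -0.95. Cebpe, a granulocyte factor, was at 0.74 and did not reach the negative control percentile on the wild-type array.

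Markers of several blood lineages differed between the arrays, and lymphocytes and myeloid cells both express members of the family. The gate for absent lineage markers is meant to remove mature lymphoid and myeloid cells, and the labels do not name its antibodies. Each array measured a whole sorted sample, so fewer cells of a type and less RNA per cell cannot be told apart. All 9 T cell markers were lower, and their summed linear level was 227 on the knockout-labelled array and 725 on the wild-type array (ratio 0.31). Of these markers 6 did not reach the negative control percentile on the knockout-labelled array and 1, Themis, on the wild-type array. All 8 B cell markers were lower, with sums of 648 on the knockout-labelled array and 1235 on the wild-type array (ratio 0.52), and 3 of them did not reach the negative control percentile on the knockout-labelled array. Eosinophil markers had a ratio of 0.35, with 5 of 7 genes past the filter below 0. Of the 8 measured, 4 did not reach that percentile on the knockout-labelled array and 3 on the wild-type array, with Il5ra and Siglecf near background on both. Ccr3 (0.96) reached it on the knockout-labelled array only and was at least 1.13-fold higher. All 9 macrophage markers were higher (ratio 1.55), with Adgre1, Cd5l and Mertk near background on both arrays. The 9 plasmacytoid dendritic cell markers, cells in which Irf7 and Irf8 are prominent, were above background on both arrays and had a ratio of 0.98, with 5 above 0. Monocyte markers had a ratio of 1.09 and neutrophil markers of 1.12. For neutrophil markers the median difference was -0.11, opposite in sign to the change of the sum. Conventional dendritic cell markers had a ratio of 1.09, with Batf3, Clec9a, Xcr1, Zbtb46, Itgax and Cd209a near background on both arrays. The summed level of the 8 interferon regulatory factor genes was 450 on the knockout-labelled array and 462 on the wild-type array (ratio 0.97). The part of these cells in the differences of Irf4, Irf1 and the other members was not tested. Of 10 measured markers of ILC progenitors only Rora was near background on both arrays. Their median difference was -0.25, with 6 of 10 below 0. These were Nfil3 (-0.93), Il7r (-0.70), Ets1 (-0.67), Tox (-0.58), Zbtb16 (-0.35) and Itgb7 (-0.14). Zbtb16 did not reach the negative control percentile on the knockout-labelled array. Il7r, Kit, Itga4 and Itgb7 encode antigens on which both samples were sorted, so the list is not independent of the gate. The 4 above 0 were Id2 (1.23), Kit (0.65), Rora (0.44) and Itga4 (0.004). The ratio of their sums was 0.95, and 0.74 without Id2, a calculation chosen after the values were seen. Nfil3, which was lower, had the highest wild-type reading of these markers (9.43), and the ratio without it was not calculated. The ratio therefore depends on single genes, and the value without Id2 is no measure of the list as a whole.

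**Figure D4:**
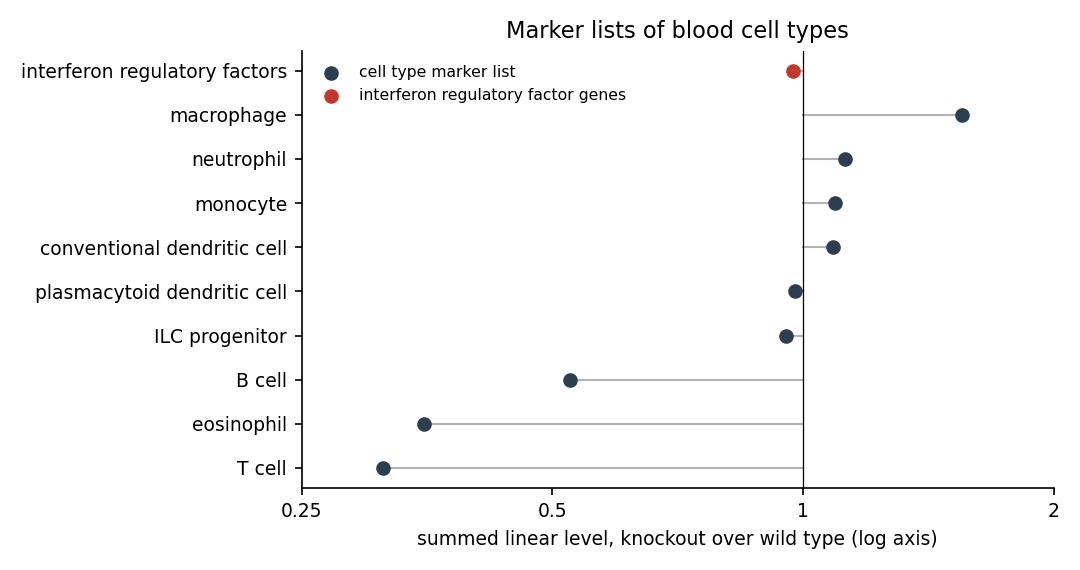
Ratio of the summed linear level on the knockout-labelled array to that on the wild-type array (log axis) for marker lists of blood cell types (dark) and for the 8 interferon regulatory factor genes (red). T cell, eosinophil and B cell markers lie furthest below 1 and macrophage markers furthest above, while the interferon regulatory factor genes (0.97) and plasmacytoid dendritic cell markers (0.98) lie close to 1.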

How the data were processed

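Total RNA of 2 sorted samples, 1 per genotype, was hybridised to Affymetrix arrays. The deposited log2 values were computed with RMA in Affymetrix Power Tools, per the submitters' processing notes (background correction, quantile normalization, probe set summary). The tool versions and genome build were not given in the sources used here, and scanner files were not used. The design text names Mouse Gene 2.0, whereas the probe set names match another Affymetrix design, so gene names rest on that platform annotation. For names, all 19505 Entrez gene identifiers were found in RefSeq (GRCm38.p6), which also supplied the promoter sequences.

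Where a gene had several probe sets, the one of highest mean was used. Genes entered when the mean of the arrays reached the median of all probe sets (2.88). Values were not centred. Folds under the negative control level on 1 array are lower limits, taken against 4.80. The named genes are all members and, in each list, the 4 with the largest difference and any changed 2-fold, up to 8; others are examples chosen after their values were seen. Likeness of pattern was not computed, since 2 arrays give a single difference. Members and lists were chosen with earlier results of these data known. Alternatives were other level filters, centring, loess (span 0.3), quantile normalization, values raised to 4.80, the mean of probe sets and a 1.5-fold threshold. Scripts were tested on simulated data. Python 3.11.15, numpy 2.4.6, pandas 2.3.3 and statsmodels 0.14.6 were used. The number of arrays limits the precision.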

Additional observations from a re-analysis of the deposited data

How the results depend on the processing

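No paired analysis was possible because each genotype has 1 array. Without replicates, a value was taken as moved when it changed by more than the local spread, and a list median by more than the spread of all differences (0.38). No list median moved by that much, but the list medians ran only from -0.07 to 0.18. The bound was wide beside them, so staying within it says little about stability. In 12 cases a list median changed sign or became 0. Of the members, Irf3 changed sign under 3 scalings, and Irf5 and Irf7 were 0 when low values were raised to the negative control level, which gave -0.16 for Irf4. Counts past the threshold moved as follows. Interferon-γ-induced genes at least 2-fold higher numbered 2 without a level filter and 0 with either stricter filter or with raised values, against 1. IRF partners at least 2-fold lower numbered 0 with either stricter filter or with raised values, against 1. Irf8-linked genes at least 2-fold lower numbered 2 after centring, loess correction or quantile normalization and 0 with raised values, against 1, and type I interferon-induced genes 1 after centring, against 0. At 1.5-fold, 1 of 8 members was higher, as were 3 of 29 type I and 2 of 28 interferon-γ genes. So were 4 of 21 sensing and 4 of 25 Irf8-linked genes, against 9.16% of all genes. Lower by as much were 1 of 29 type I, 2 of 28 interferon-γ and 2 of 25 Irf8-linked genes, against 5.16% of all genes. Over all genes, 170 higher and 85 lower at 2-fold became 997 and 561 at 1.5-fold, 123 and 118 after centring, 35 and 25 with the 75th percentile filter and 19 and 23 with raised values. The causes were not tested. Signal near the negative controls limits Irf4, Irf5, Irf7 and Irf9.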
